A study of Mus musculus with 2 samples.

Results

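Mir214, Mir199b, Mir199a-2 and Mir199a-1 are the 4 mouse miRNA genes of the Mir199 and Mir214 families, which are known for expression in mesenchyme, the loose embryonic tissue that forms the skeleton and connective tissue of the limb. They were found by matching the gene identifiers of the deposited counts, without their version, to GENCODE symbols, and all 4 were found among 1973 listed miRNA genes. The counts came from small RNA of whole limb of B6NCrl mouse embryos at day 11.5, with both sexes pooled and the animals recorded as healthy. The 2 libraries form 1 group and carry the numbers of biological replicates, with 109 embryos pooled for replicate 1 and 88 for replicate 2. Both carry 1 donor identifier whose meaning the labels do not give, so whether they are independent is not settled. Every p-value below compares these 2 libraries, and no second tissue, age or treatment was there to compare. Most set the difference against counting error alone. Widened forms of the test, named where used, enlarge that error by a factor common to all genes and taken from the same 2 libraries. None estimates the spread between replicates for a single gene.

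A miRNA is cut from a hairpin precursor, and either arm of the hairpin can yield a mature strand that represses messenger RNAs through its seed, bases 2 to 8. In mouse, miR-199a-2 and miR-214 are made from a single noncoding transcript, Dnm3os, whose loss disturbs skeletal growth and which the mesenchymal transcription factor Twist1 activates. In mouse cells miR-214 is known to repress Ezh2 in muscle precursors and Atf4 in osteoblasts, and miR-199a to repress Smad1 during cartilage differentiation. All Mir199 and Mir214 hairpins lie in dynamin genes, which encode membrane-cutting GTPases, on the strand opposite to the dynamin message.

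On the mm10 assembly (GRCm38), Mir214 (ENSMUSG00000065516.1) lies at chr1:162223368-162223477 on the plus strand, and Mir199a-2 (ENSMUSG00000070126.1) at chr1:162217814-162217923 on the same strand. Both overlap an annotated exon of Dnm3os, both lie within Dnm3 on its opposite strand without touching a Dnm3 exon, and 5444 bases separate them. Mir199b (ENSMUSG00000092807.1) lies at chr2:32318460-32318569 on the plus strand, within an intron of Dnm1, which runs on the minus strand. Mir199a-1 (ENSMUSG00000065547.1) lies at chr9:21496495-21496564 on the minus strand, within an intron of Dnm2, which runs on the plus strand. The annotated hairpin has 70 bases for Mir199a-1 and 110 for each of the other genes.

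The mature strands in RefSeq (GRCm38.p6), which held all 4 genes, are shown because they decide which reads can be told apart. Capitals mark the seed.
miR-214-3p: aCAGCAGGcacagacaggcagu
miR-214-5p: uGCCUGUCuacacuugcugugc
miR-199a-5p (Mir199a-1 and Mir199a-2): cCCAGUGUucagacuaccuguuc
miR-199a-3p (Mir199a-1 and Mir199a-2): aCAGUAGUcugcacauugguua
miR-199b-3p: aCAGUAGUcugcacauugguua
miR-761, from Mir761: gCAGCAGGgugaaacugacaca
The strands miR-199a-3p and miR-199b-3p are the same 22 bases, so 1 seed serves 3 genes, and miR-199a-5p is the same in both genes that encode it. miR-199b-5p is named only. Neither strand of Mir214 has the sequence of another gene's mature strand, and the longest stretch its hairpin shares with a Mir199 hairpin has 7 bases. The seed of miR-214-3p recurs in 1 other strand of the table, miR-761, which is identical to it at 13 of 22 positions.

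By reads assigned to 1 gene, Mir214 was among the most abundant miRNA genes of the limb, and the Mir199 genes were counted far below it. Reads that map to several places enter no gene's count, so all ranks and shares compare assigned reads, not amounts of mature miRNA. The unit here is CPM, the sense-strand count scaled to a common total of sense counts per library. Mir214 had 118454 sense counts in replicate 1 and 131559 in replicate 2, or 40112 and 38032 CPM. It held 3.91% ± 0.15 of the sense counts (SD, n = 2) and ranked 5 in both libraries.

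Mir199b had 4909 sense counts in replicate 1 and 4723 in replicate 2, or 1662 and 1365 CPM, at ranks 79 and 85. Mir199a-2, the partner of Mir214 on Dnm3os, had 1008 and 989 sense counts, or 341 and 286 CPM, at ranks 135 and 146. Mir199a-1 had 95 and 114 sense counts, or 32.2 and 33.0 CPM, at ranks 248 and 243. The order Mir214, Mir199b, Mir199a-2, Mir199a-1 was thus the same in both libraries, and no 2 members overlapped in level.

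**Figure D1:**
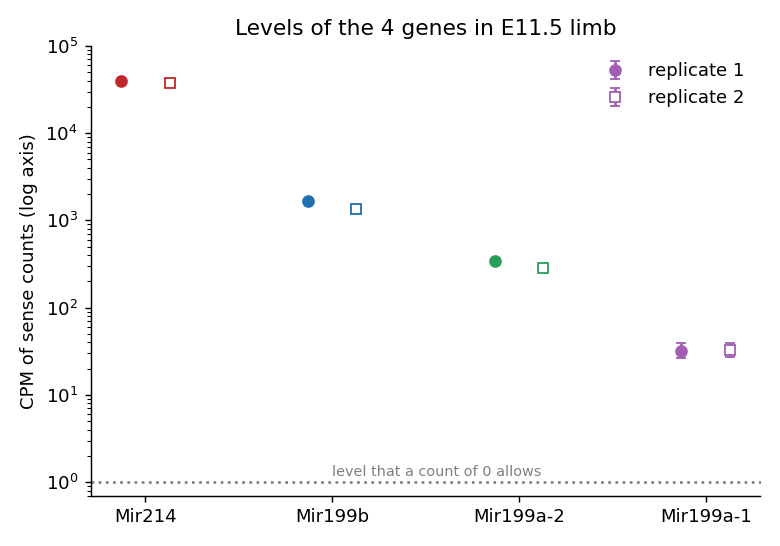
Sense counts of the 4 genes in CPM (log axis), with a filled circle for replicate 1, an open square for replicate 2 and bars for the Wilson 95% interval of counting error. Mir214 averages 39072 CPM, Mir199b 1514, Mir199a-2 314 and Mir199a-1 32.6, each well above the dotted line, the level that a count of 0 allows.

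Sense counts of miRNA genes totalled 2953085 in replicate 1 and 3459176 in replicate 2, so that 3 counts, the limit a count of 0 allows, correspond to 1.02 and 0.867 CPM. The Wilson 95% interval of Mir199a-1, the lowest member, ran from 26.3 to 39.3 CPM in replicate 1 and from 27.4 to 39.6 CPM in replicate 2. For Mir214 it ran from 39889 to 40336 CPM in replicate 1 and from 37831 to 38234 CPM in replicate 2. These intervals cover counting error only, since PCR copies are not independent molecules.

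Together the 4 genes held 4.09% ± 0.17 of the sense counts (SD, n = 2), with 4.21% in replicate 1 and 3.97% in replicate 2. Mir214 alone made up 95.5% ± 0.42 of the counts of the 4 genes. Mir199b made up 3.69% ± 0.36, Mir199a-2 0.765% ± 0.064 and Mir199a-1 0.0797% ± 0.0047. The 3 Mir199 genes summed to 6012 counts in replicate 1 and 5826 in replicate 2, and Mir214 held 19.7 and 22.6 times as many.

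All 4 genes passed the detection level of 10 CPM in both libraries, as did 295 of the 1973 listed genes. On the opposite strand of the members the files held 3 counts for Mir214 in replicate 2 and 0 at the other members and in replicate 1; no header names the strands, and the column with nearly all counts of the files was read as sense. In bulk tissue, fewer cells of a type and less RNA per cell cannot be told apart, and the limb tissue held other cell types too. The 6 Hox-cluster miRNAs that mark limb position were all detected and held 12.9% ± 0.19. The 10 epithelial markers held 1.96% ± 0.22 and Mir126a of endothelium 2.42% ± 0.01, whereas the liver marker Mir122 stood at 18.2 ± 4.9 CPM. None of these lists tells which cells held the members, and this was not tested.

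Around Mir214 the ranks were well separated. Mir17, of the proliferation-linked Mir17-92 cluster, and Mir196b, of the Hoxa cluster, stood above it at 71809 ± 1070 and 70319 ± 2620 CPM. Mir10b, of the Hoxd cluster, stood next below at 35910 ± 196 CPM and Mir130a below that at 31241 ± 780 CPM, against 39072 ± 1471 CPM for Mir214 (SD, n = 2 for each). All 4 of these gaps exceeded the summed SDs and kept their direction in both libraries. Divided by hairpin length, Mir214 ranked 9 instead of 5.

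The Mir199 genes sat among neighbours they could not be ordered against. Mir199b, at 1514 ± 210 CPM, had Mir106a at 1580 ± 44 and Mir28a at 1547 ± 93 CPM just above it, and Mir200c at 1458 ± 100 and Mir34c at 1446 ± 29 CPM just below. Each of those 4 changed place with Mir199b between the libraries, and no gap exceeded the summed SDs. Mir199a-2, at 314 ± 39 CPM, likewise changed place with Mir543, Mir302b, Mir181a-2 and Mir224, which lay between 298 and 319 CPM. Mir199a-1, at 32.6 ± 0.6 CPM, had Mir211, Mir6540, Mir146 and Mir668 within 31.3 to 32.9 CPM. Of these 4, Mir668 alone kept its side of Mir199a-1 in both libraries.

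**Figure D2:**
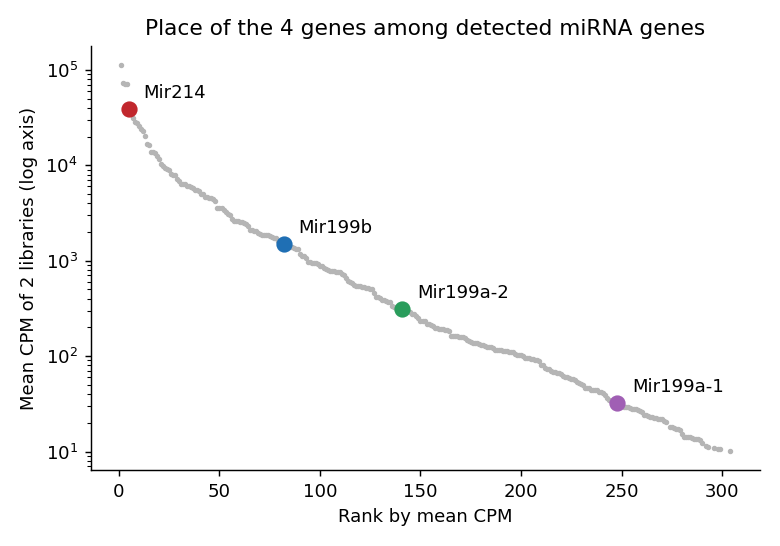
Mean CPM of the 2 libraries (log axis) against rank for the genes detected in both, with grey points for all genes and coloured points for the 4 members. Mir214 stands at rank 5, on the steep part of the curve, and the Mir199 genes stand at ranks 82, 141 and 248.

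The counts of 2 hairpins cut from the same transcript differed widely. Mir214 exceeded Mir199a-2 by 6.88 log2 units in replicate 1 and 7.06 in replicate 2, a mean of 6.97 ± 0.13 (SD, n = 2), or 125-fold. The counting error of this log2 ratio was 0.046 in each library, so the ratio was far larger than both the spread between libraries and the counting error. Mir214 also exceeded Mir199b, the most counted Mir199 gene, by 4.70 ± 0.15 log2 units.

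Among the Mir199 genes, Mir199b exceeded Mir199a-2 by 2.28 log2 units in replicate 1 and 2.26 in replicate 2, and Mir199a-1 by 5.69 and 5.37. Mir199a-2 exceeded Mir199a-1 by 3.41 and 3.12 log2 units. The ratio of Mir199b to Mir199a-2 differed between the libraries by less than its counting error, which was 0.050 in each. Both other ratios involve the 95 and 114 counts of Mir199a-1, and their counting error was 0.14 to 0.15. Per base of hairpin, the excess was 4.88 log2 units for Mir199b and 2.61 for Mir199a-2. With 2 libraries an exact sign-flip test of a ratio cannot go below p = 0.5, so none was run.

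A wide gap between neighbouring hairpins was not peculiar to the Dnm3os pair. Over 102 pairs of detected miRNA genes that follow each other on 1 strand within 10000 bases, the median absolute log2 ratio was 2.52 and the largest was 9.30, for Mir99a and Mirlet7c-1. The Dnm3os pair ranked 8 of the 102. Among 74 of these pairs in which neither hairpin shares a 22-base window with another hairpin, the median was 2.35 and the largest 8.78. Mir199a-2 does share such windows, so its pair lies outside those 74, as does the pair of Mir99a and Mirlet7c-1. Several other pairs ranked above the Dnm3os pair also hold a hairpin with shared windows. The part of reads lost between copies in these gaps was not tested.

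Genes with an identical mature strand could also differ widely in counts. Of 16 pairs in which both genes were detected and shared a mature sequence, the median absolute log2 ratio was 2.19. Mir199b and Mir199a-1 ranked 2 of 16 at 5.53, below Mir181b-1 and Mir181b-2 at 5.91. Mir199a-2 and Mir199a-1 ranked 5 at 3.26, and Mir199b and Mir199a-2 ranked 8 at 2.27.

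**Figure D3:**
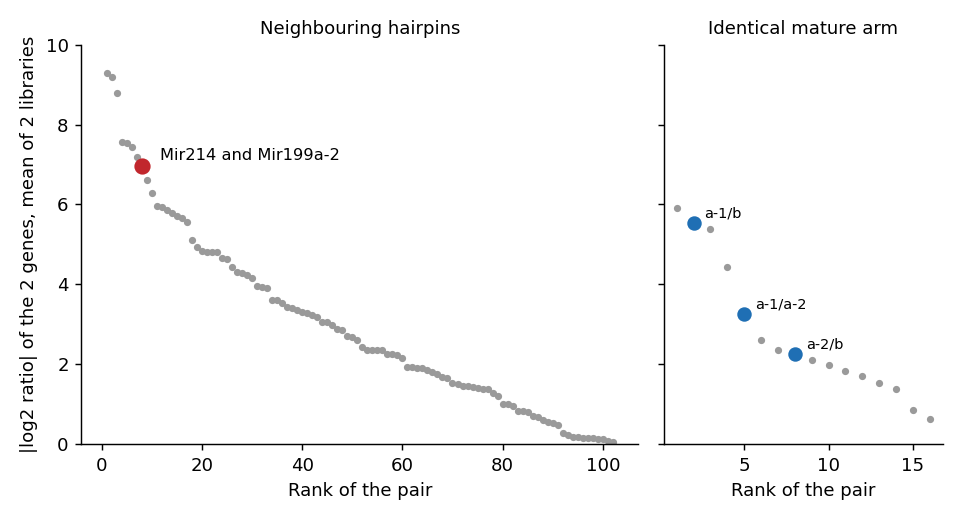
Absolute log2 ratio of the 2 genes of a pair, as the mean of both libraries, against the rank of the pair, for neighbouring hairpins on 1 strand (left) and genes with an identical mature strand (right). The coloured points are the Dnm3os pair at 6.97 and the 3 pairs of Mir199 genes at 5.53, 3.26 and 2.27.

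The near-identity of the Mir199 hairpins bears on every one of these Mir199 values. Reads that map to several places have a line of their own in the files, with 1644176 reads in replicate 1 and 1738400 in replicate 2, or 24.7% and 23.4% of all reads, and enter no gene's count. A read equal to miR-199a-3p or miR-199b-3p fits 3 hairpins, and one equal to miR-199a-5p fits 2. How many multimapping reads came from Mir199 genes is not recorded in the files. The multimapping line was 273 times the summed Mir199 counts in replicate 1 and 298 times in replicate 2. The gap between Mir214 and the summed Mir199 genes equalled 6.84% and 7.23% of that line, so the order of Mir214 above the Mir199 family is an order of assigned reads, not of mature miRNA.

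Sequence sharing was counted over windows of 22 bases, about the length of a mature strand, searched in 2202 annotated hairpins and not in the rest of the genome. All 89 windows of Mir214 were found in its hairpin only. Mir199b had 81 of 89 windows of its own, Mir199a-2 had 77 of 89, and Mir199a-1 had 36 of 49. Every shared window of a Mir199 hairpin was shared with another Mir199 hairpin and with no other gene.

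The Mir199 genes differed in where the shared windows lay. On the 5′ side of the midpoint of the hairpin, all 44 windows of Mir199b were its own, against 38 of 44 for Mir199a-2 and 18 of 24 for Mir199a-1. On the 3′ side, Mir199b kept 37 of 45, Mir199a-2 39 of 45 and Mir199a-1 18 of 25. With up to 1 mismatch allowed, Mir199b kept 37 of the 44 windows of its 5′ side, so its separation there depends on exact matching. Over the whole hairpin, the order of windows of their own, Mir199b, Mir199a-2, Mir199a-1, was also the order of their counts. The step from Mir199b to Mir199a-2 was small, at 68 and 67 of 89 windows with up to 1 mismatch, and reversed on the 3′ side. The place of Mir199a-1 in the order reflects its annotated length of 70 bases against 110, since Mir199a-2 and Mir199a-1 share 12 and 13 windows. These are 3 genes, and no test was made.

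**Figure D4:**
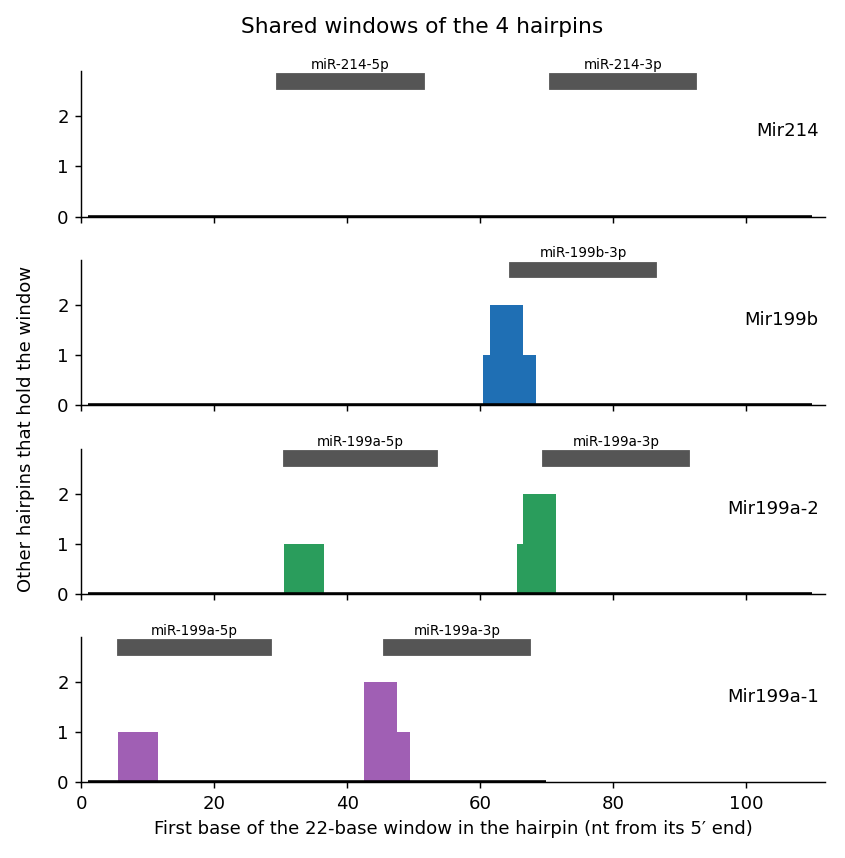
Number of other annotated hairpins that hold each 22-base window (vertical axis, 0 to 2), against the first base of the window counted from the 5′ end of the hairpin, with dark bars for the mature strands of the RefSeq table and a black line for the hairpin. Mir214 shares no window, Mir199b shares 8 windows near its 3p strand, and Mir199a-2 and Mir199a-1 share 12 and 13 windows around both strands.

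A read of a Mir199 mature strand becomes specific to 1 hairpin once it runs far enough into the flank. The strands with up to 8 flanking hairpin bases on each side are given below from GENCODE hairpins, which were identical to those of RefSeq. Capitals mark the first flanking base at which the strand, extended on that side alone, occurs in no other annotated hairpin.
Mir199b, 3p (chr2:32318516-32318553, plus): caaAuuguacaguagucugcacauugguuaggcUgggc
Mir199a-2, 3p (chr1:162217875-162217912, plus): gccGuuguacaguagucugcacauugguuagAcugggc
Mir199a-1, 3p (chr9:21496495-21496527, minus): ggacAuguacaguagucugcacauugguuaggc
Mir199a-2, 5p (chr1:162217836-162217874, plus): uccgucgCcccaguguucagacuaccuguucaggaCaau
Mir199a-1, 5p (chr9:21496529-21496564, minus): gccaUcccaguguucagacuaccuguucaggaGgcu
For the 3p strand, 2 extra bases at the 3′ end sufficed for Mir199a-2. The annotated Mir199a-1 hairpin ends 3 bases after its 3p strand, before any base sets it apart, and Mir199b has the same 3 bases. The 4 extra bases of Mir199b thus mark only where that annotation ends. Whether the 2 loci differ beyond that end was not searched. At the 5′ end of that strand, 5 extra bases were needed for Mir199b and Mir199a-2 and 4 for Mir199a-1. For miR-199a-5p, 1 extra base at the 5′ end or 5 at the 3′ end told Mir199a-2 and Mir199a-1 apart. The files give no read sequences, so which of these forms supplied the counts was not tested.

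Mir214 and the Mir199 genes stood on different sides of a wider divide in the files. Of 871 listed genes that share at least 1 such window with another hairpin, 53 were detected (6.08%), and they held 2.93% of the sense counts. Of 1023 listed genes that share none, 242 were detected (23.7%), and they held 97.1%. Mir214 had 4 genes above it among those that share none. Among genes that share windows, 8 stood above Mir199b, 15 above Mir199a-2 and 42 above Mir199a-1, so within that class Mir199b was one of the higher counts.

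Of the other miRNA genes tied to these members, none was abundant. Mir761, whose strand shares the miR-214-3p seed, had 0 counts in both libraries. The dynamin genes hold 1 further annotated miRNA gene, Gm23363, 116 bases from Mir199b in Dnm1, with 5 counts in replicate 1 and 4 in replicate 2.

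Other skeletal and mesenchymal miRNAs gave a scale for the members. In CPM per 100 bases of hairpin, Mir214 stood at 35520 ± 1337, above all 11 genes of that list. Mir140, which is expressed in cartilage, followed at 19662 ± 1707 and Mir143, of the smooth muscle cluster with Mir145a, at 9103 ± 909. Mir21a, known from fibrosis, reached 4808 ± 181. Mir199b, at 1376 ± 191, lay below Mir455 of cartilage at 1621 ± 6 and did not differ beyond its SD from Mir22 at 1384 ± 47. The order depends on the division by length. In plain CPM Mir199b, at 1514 ± 210, stood above Mir455 at 1329 ± 5 and Mir22 at 1314 ± 45, but neither gap exceeded the summed SDs. Mir199a-2 at 285 ± 36 lay above Mir145a at 162 ± 15. Mir199a-1 at 46.5 ± 0.8 lay between Mir29c at 77.9 ± 4.2 and Mir29a at 30.1 ± 4.4, members of a family that represses collagens. Of the 11 genes 9 were detected, and Mir29b-1 and Mir29b-2 had at most 2 counts in a library. Reads that map to several places enter no count, so these low counts need not mean that a mature strand was absent.

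Mir199b had 1662 CPM in replicate 1 and 1365 in replicate 2, and Mir199a-2 had 341 and 286, so that replicate 1 was above replicate 2 by 1.22-fold and 1.20-fold. With scaling by trimmed mean of M-values (TMM), Mir199b had a log2 ratio of 0.29 (adjusted p = 1.82e-21) and Mir199a-2 one of 0.26 (adjusted p = 0.000383), by a two-sided exact binomial test with Benjamini-Hochberg adjustment over 422 genes. Mir214 had a log2 ratio of 0.08 (adjusted p = 2.13e-44 in the same exact test), or 1.06-fold. For Mir199a-1 the log2 ratio was −0.03, which the same exact test did not call (adjusted p = 0.963). This test treats every read as an independent molecule, so its p-values cover counting error only.

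The test thus called 3 of the 4 members, all higher in replicate 1, against 84 of 422 genes, or 19.9%, in either direction and 9.95% higher in replicate 1. Among the 141 tested genes at or above the level of Mir199a-2 it called 67. The median absolute log2 ratio of those 141 genes was 0.07, and 7 of them had a larger one than Mir199b and 9 a larger one than Mir199a-2. A form of the test widened for the mean overdispersion of all genes left 13 calls in all, or 3.08%. In this form Mir214 was the 1 member called (adjusted p = 0.0349), and Mir199b (adjusted p = 0.503) and Mir199a-2 (adjusted p = 1.00) lost the call. Its factor is common to all genes, so a small ratio at a high count can stay called where a larger ratio at a lower count does not.

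Some cell type markers and skeletal miRNAs were also called between the libraries by the exact binomial test. All 10 epithelial markers had lower values in replicate 1, 7 of them called, and none was at 0. Several of them are neighbours on 1 strand within 10000 bases, so the 10 directions need not be independent. The 10 markers held 1.81% in replicate 1 and 2.12% in replicate 2. Of the 2 tested red blood cell markers Mir451a was called, with a log2 ratio of −0.44. Mir144 went the other way at 0.26 and was not called. The red blood cell list held 0.0367% in replicate 1 and 0.0481% in replicate 2. Of the 6 miRNAs of limb position 2 were called higher in replicate 1, Mir196a-2 and Mir196b, and 1 lower, Mir10a. The tested markers of endothelium (1 gene), white blood cells (2), muscle (2), neurons (2) and liver (1) were not called. The part of these markers in the differences of the members was not tested. Of the 11 skeletal and mesenchymal genes 9 were tested and 3 called. Mir140 (log2 ratio 0.18) and Mir21a (0.08) were higher and Mir143 (−0.20) lower in replicate 1, and the median of the 9 was −0.0017, against −0.0073 over all tested genes.

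**Figure D5:**
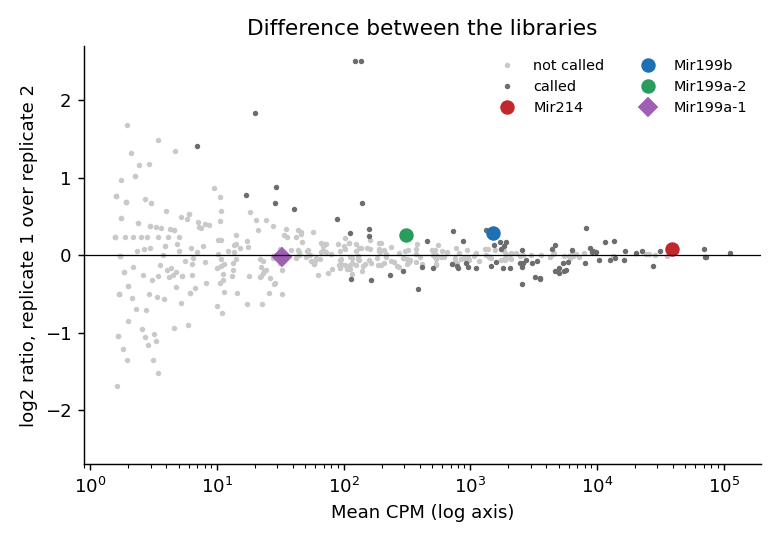
log2 ratio of replicate 1 over replicate 2 against mean CPM (log axis) for 422 tested genes, with dark points for called and light points for uncalled genes; 2 genes beyond 2.5 are drawn at that edge. Mir199b at 0.29 and Mir199a-2 at 0.26 lie above most genes of similar level, Mir214 at 0.08 lies near 0, and Mir199a-1 (diamond) was not called.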

How the data were processed

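Small RNA libraries of E11.5 limb were analysed from the deposited raw counts of reads per miRNA gene, which the authors made on mm10 with GENCODE annotation M4, per the notes deposited with each sample. Which aligner and counter were used, and how, the sources used here do not give. Of 3 count columns, the first equals the sum of the others, and the second, with nearly all counts, was read as sense. Lines for unassigned reads stayed out of library sizes; unmapped reads took 23.6% and 23.5%. Symbols and hairpins came from GENCODE M21, which matched 1894 of 1973 identifiers.

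Genes with 10 or more counts over both libraries were compared by a two-sided exact binomial test against library sizes scaled with edgeR 4.0.16 (TMM), adjusted by Benjamini-Hochberg at 0.05; log2 ratios used a prior count of 0.5. The quasi-likelihood test was not used, since 1 group gives no contrast. Alternatives covered column, denominator, scaling (DESeq2 1.42.0), filter, pseudocount, hairpin length, window length, mismatches and overdispersion.

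Named genes are the members, the 2 next genes on either side in level, genes sharing a seed, miRNA genes within dynamin genes and the skeletal and mesenchymal list, with some cell type markers from fixed lists; Mir99a, Mirlet7c-1, Mir181b-1 and Mir181b-2 were named after their values were seen. Members and lists were chosen with earlier results of these data known, and the counts of neighbouring pairs, of genes with identical strands and of genes sharing windows were added after the data were seen. R 4.3.3 and Python 3.11.15 were used.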

Additional observations from a re-analysis of the deposited data

How the results depend on the processing

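Of 82 alternative values apart from those of single libraries, 64 stayed the same. They kept their direction and side of the threshold, or moved by less than the spread between libraries. For counts and window shares the limit was 1.5-fold. Of the rest, 15 moved further and 3 lost the call. Shares, window percentages and counts cannot change sign, and the overdispersed forms keep the same log2 ratio, so direction was fixed in advance for these. Ratios between hairpins of 110 bases cannot change per hairpin length. With 0 opposite-strand counts, ratios among the Mir199 genes cannot change when both strands are summed. Such values are among the 64 and carry no information. With 2 libraries, a single one always lies within 1 SD of the mean, so those values test nothing. The share of the 4 genes became 1.86% of all reads and 4.61% without the most abundant gene, and lay between 3.97% and 4.21% in single libraries. Per hairpin length the log2 ratio to Mir199a-1 was 4.88 for Mir199b and 2.61 for Mir199a-2. In single libraries the ratio of Mir214 to Mir199a-2 lay between 6.88 and 7.06, and that of Mir199b to Mir199a-1 between 5.37 and 5.69. Overdispersed tests called 13 genes, or 3.08%, with the mean and 47, or 11.1%, with the median, instead of 84, or 19.9%. With the mean form of the test Mir214 was the 1 member called (adjusted p = 0.0349), and Mir199b (adjusted p = 0.503) and Mir199a-2 (adjusted p = 1.00) did not pass. With the median form Mir199a-2 did not pass (adjusted p = 0.0930). The wider error these forms assign by construction accounts for the lost calls. Scaling, filter and column left 3 members called, while these settings called between 11.2% (no filter) and 20.6% (both strands summed) of all tested genes. Leaving out a library leaves no test between libraries, and no paired analysis was possible because the series holds 1 group. Depth limits mainly Mir199a-1, and reads shared between copies limit all Mir199 values. Such reads are also missing from other genes, so the rank and share of Mir214 hold for assigned reads only.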
